A study of Mus musculus with 15 samples.

Results

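Tubular injury and repair markers are genes whose transcripts, some of them low in healthy kidneys, climb when the epithelium of the nephron is damaged or regenerates. The set held 10 genes chosen by name, Havcr1, Lcn2, Clu, Spp1, Vcam1, Sox9, Krt20, Timp1, Cdkn1a and Fgb, out of 22180 genes with a probe set annotated to 1 gene symbol. A probe set of that kind was at hand for 9 of them, 1 each, and Spp1, which encodes the secreted matrix protein osteopontin, was not analysed here. Kidney RNA came from 8 Grhl1 knockout mice (Grhl1-/-, replicates 8 to 15) and 7 wild-type mice (Grhl1+/+, replicates 1 to 7), all about 6 months old. Grhl1 belongs to the grainyhead-like family of DNA-binding regulators in epithelial cells. No treatment or injury was part of the design, and allele, strain, sex and litter are not stated by the labels. The design has a single comparison, knockout against wild type, and for these genes it asks whether kidneys without Grhl1 carry transcripts of tubular damage.

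After an insult such as ischaemia or a toxin, proximal tubule cells lose their transport programme, shed their brush border and re-enter a proliferative, partly dedifferentiated state. Surviving cells put Havcr1 on their surface and switch on Sox9, distal segments secrete Lcn2, and cells that fail to recover keep expressing Vcam1. Several of these proteins are measured in urine or tissue as signs of acute kidney injury. Fgb is an exception in its origin, because fibrinogen is made chiefly by hepatocytes, although injured tubules are known to express it.

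All values are log2 robust multi-array average (RMA) summaries, a scale on which 1 unit is a doubling of probe signal, and differences are knockout minus wild type. The arrays had medians between 5.51 and 5.59 and pairwise correlations from 0.976 to 0.991, and no 2 arrays were identical. The tissue label held, with Slc34a1, the proximal phosphate transporter, averaging 13.5 in knockout and 13.5 in wild-type kidneys, and Umod, the uromodulin gene of the thick ascending limb, 13.2 in knockout and 13.2 in wild-type kidneys. Grhl1 itself read 4.40 to 4.92 in knockout kidneys, all 8 below the wild-type range of 4.96 to 5.25 (difference -0.38, exact permutation p = 0.000311, limma adjusted p = 0.113). The labels do not say which exons the allele removes, so it is unknown whether this probe set covers them. A mean over 25 liver genes stood more than 1 unit above the median of all samples in knockout replicate 10 (7.61), wild-type replicate 3 (7.62) and wild-type replicate 7 (9.64), against 5.75 to 5.96 in the other 12 samples. Adrenal transcripts were high in 4 knockout and 2 wild-type samples. Y-linked transcripts were present in 5 knockout and 5 wild-type samples, and low in knockout replicates 13, 14 and 15 and wild-type replicates 6 and 7. Xist, the transcript of the inactive X chromosome, read 11.41 to 11.57 in those 5 samples and at most 4.29 in the other 10. By these transcripts the 5 kidneys are female and the 10 male, so splits by Y-linked transcripts below are splits by sex. The genotype differences of the 9 markers were also fitted without the samples with liver or adrenal transcripts, and with Y-linked transcripts as a block. Genotype differences of the other genes and lists are given over all 15 samples only.

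None of the 9 markers passed the test between knockout and wild-type kidneys. In limma over 23521 probe sets, 0 of 9 had a Benjamini-Hochberg adjusted p under 0.05 and 0 of 9 an unadjusted p under 0.05, and the exact rank-sum test likewise gave 0 and 0. Over all probe sets 0.0128% passed (0.0085% lower and 0.00425% higher in knockouts), and 5.55% had an unadjusted p under 0.05, so the share among the markers was no larger than that of the table. The genotypes overlapped for all 9 markers, where 0.123% of all probe sets had groups without overlap. Of the 9 differences 5 lay above 0 and 4 below, with a median of 0.02, beside 54.7% above 0 and a median of 0.0086 over 22180 genes. Apart from Fgb, the 95% intervals of the differences, as folds, stayed between 0.699 (Cdkn1a) and 1.36 (Lcn2). In these bulk samples fewer cells of a type and less RNA per cell cannot be told apart, so a marker raised in few tubules could sit within these intervals.

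**Figure D1:**
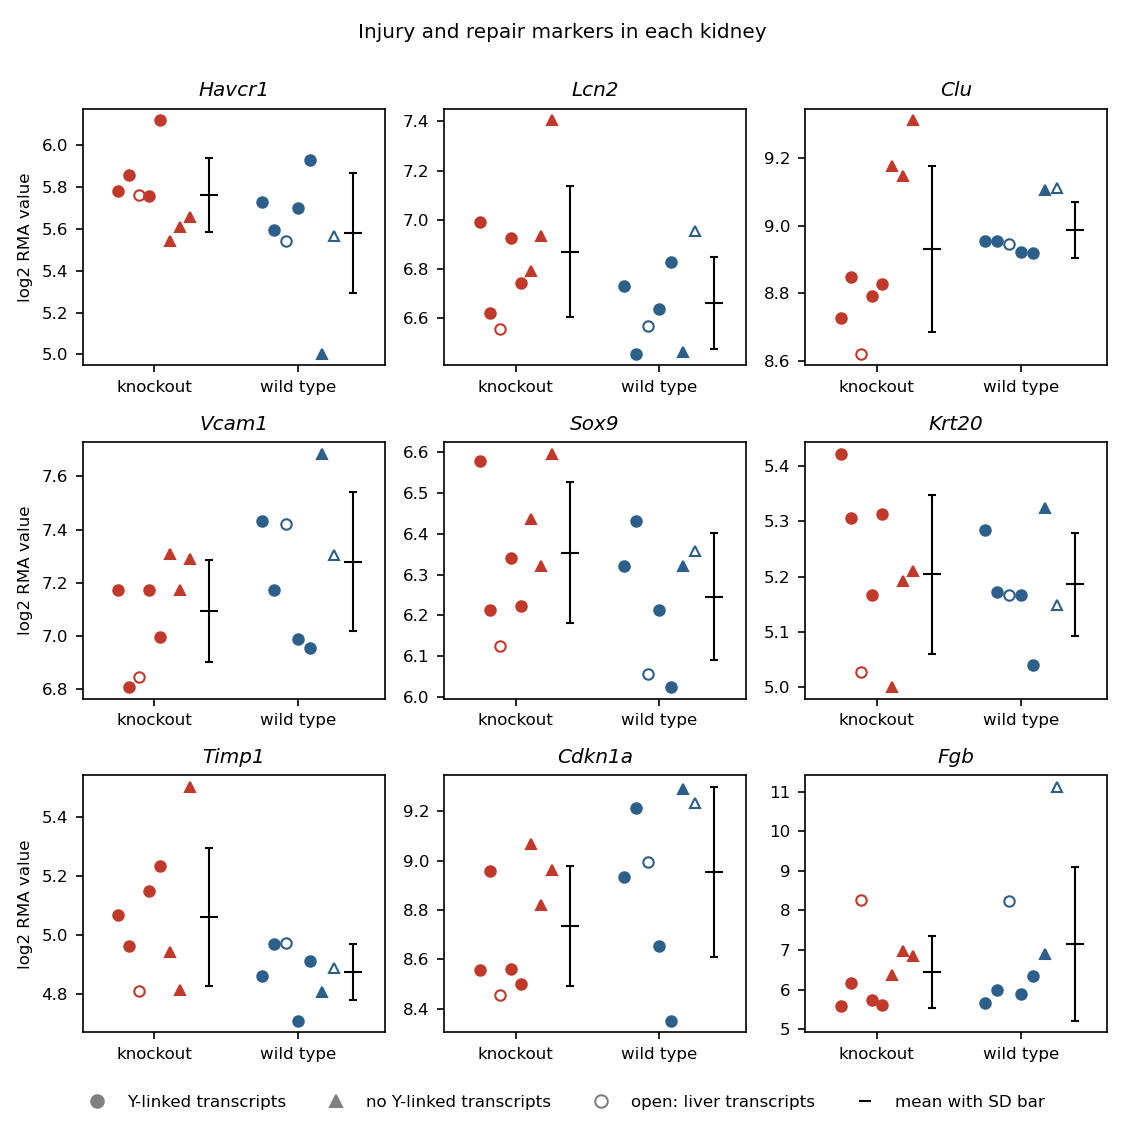
Log2 RMA values of the 9 measured markers in each of 8 knockout (red, left) and 7 wild-type (blue, right) kidneys, in replicate order from left to right, with the mean and SD beside each group. Circles had Y-linked transcripts, triangles did not, and open symbols had liver transcripts. The genotypes overlap in every panel, and only Fgb has its highest value, 11.1, in wild-type replicate 7.

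Havcr1 encodes kidney injury molecule 1, a phosphatidylserine receptor with which injured proximal tubule cells take up dying neighbours. It read from 5.54 to 6.12, with a median of 5.76, in knockout kidneys, against 5.003 to 5.93, with a median of 5.59, in wild-type kidneys. Knockout replicate 12 was the highest of all samples and wild-type replicate 6 the lowest, and 7 of 8 knockouts exceeded the wild-type median. The means were 5.76 ± 0.18 (SD, n = 8) in knockout and 5.58 ± 0.29 (SD, n = 7) in wild-type kidneys, a difference of 0.18 (95% interval -0.06 to 0.42, exact permutation p = 0.175, limma adjusted p = 0.973). As a fold, this interval runs from 0.959 to 1.34. Without wild-type replicate 6 the difference was 0.08, and without wild-type replicate 5, the highest wild-type sample, 0.24 (95% interval 0.0035 to 0.47, limma adjusted p = 0.917). With Y-linked transcripts as a block it was 0.21 (95% interval 0.03 to 0.39, limma adjusted p = 0.518). Wild-type replicate 6 is 1 of 2 wild-type kidneys without Y-linked transcripts. Havcr1 averaged 5.48 in the samples without these transcripts and 5.78 in those with them. Its signal was low, brighter than 42.4% of all probe sets, a range in which RMA compresses changes.

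Lcn2 encodes lipocalin 2 (NGAL), a siderophore-binding protein that distal nephron cells secrete early after injury and that neutrophils store in granules. It ranged from 6.55 to 7.41, with a median of 6.86, in knockout kidneys, against 6.45 to 6.95, with a median of 6.63, in wild-type kidneys. Knockout replicates 15 and 8, at 7.41 and 6.99, were above every wild-type sample. The difference was 0.21 (95% interval -0.03 to 0.45, exact permutation p = 0.0998, limma adjusted p = 0.947), and 0.13 without knockout replicate 15. Without the 3 samples with liver transcripts it was 0.29 (95% interval 0.04 to 0.55, limma adjusted p = 0.888). In that fit Lcn2 and Timp1 were the 2 of 9 markers with an unadjusted p under 0.05, beside 5.45% of all probe sets. The mean over 10 neutrophil genes lay between 4.55 and 4.69 in knockout and between 4.53 and 4.71 in wild-type kidneys, and S100a8 and S100a9, which define these cells, averaged 3.22 and 4.42 in knockout and 3.21 and 4.34 in wild-type kidneys.

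Clu encodes clusterin, an extracellular chaperone induced in damaged tubules. Its signal was brighter than 85.1% of all probe sets. Over all samples it ranged from 8.62 to 9.31, with a median of 8.84, in knockout kidneys, against 8.92 to 9.11, with a median of 8.96, in wild-type kidneys. The knockout values fell on both sides of the narrow wild-type range, 5 below it and 3 above it. The difference was -0.06 (95% interval -0.25 to 0.14, exact permutation p = 0.570, limma adjusted p = 0.997), and it lay at 0.0042 without the samples with liver transcripts and at 0.0057 without those with adrenal transcripts.

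The side on which a knockout kidney fell went with its Y-linked transcripts. Among samples with Y-linked transcripts, Clu read 8.73, 8.85, 8.62, 8.79 and 8.83 in knockout replicates 8 to 12, against 8.96, 8.96, 8.95, 8.92 and 8.92 in wild-type replicates 1 to 5. Among samples without them it read 9.18, 9.15 and 9.31 in knockout replicates 13 to 15, against 9.10 and 9.11 in wild-type replicates 6 and 7. The genotypes did not overlap in either set, with the knockouts lower in the first and higher in the second. Within the first the difference was -0.18 (limma adjusted p = 0.462), and the exact permutation p of 0.00794 is the smallest that 5 against 5 samples can give. The genotypes of these 10 samples did not overlap for 1.73% of all probe sets, and for 0.719% with the knockouts lower. Within the second the difference was 0.10 (limma adjusted p = 0.791), and 3 against 2 samples cannot give an exact p below 0.2. With so few samples the genotypes did not overlap for 24.7% of all probe sets, 14.7% with the knockouts higher and 10% with them lower. Cdkn1a also did not overlap in that set, with the knockouts lower, at 8.82 to 9.07 in knockout and 9.23 to 9.29 in wild-type kidneys. The difference between these differences was 0.28 (SE 0.09, 95% interval 0.09 to 0.47, limma unadjusted p = 0.00665, adjusted p = 0.584) in a fit chosen after these values were seen. None of the probe sets passed that interaction test after adjustment in limma, and 7.04% had an unadjusted p under 0.05. Clu was also higher in every sample without Y-linked transcripts (9.10 to 9.31) than in every sample with them (8.62 to 8.96), a separation shared by 11.5% of all probe sets.

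**Figure D2:**
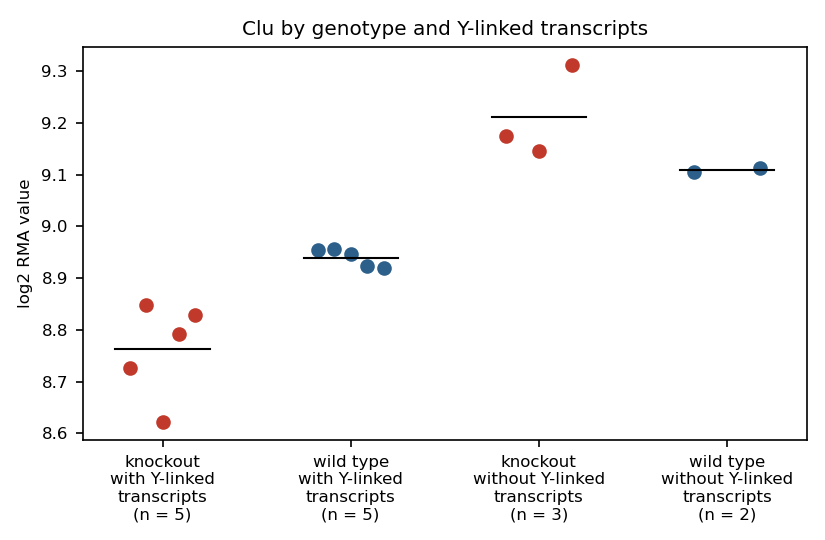
Log2 RMA values of Clu in kidneys with Y-linked transcripts (5 knockout, red, and 5 wild type, blue) and without them (3 knockout and 2 wild type), each point a mouse and each line a group mean. The knockouts lie below the wild types in the first pair, by 0.18, and above them in the second, by 0.10.

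Sox9, a transcription factor of nephron progenitors that surviving tubule cells switch on during repair, ranged from 6.12 to 6.60, with a median of 6.33, in knockout kidneys, against 6.02 to 6.43, with a median of 6.32, in wild-type kidneys. Knockout replicates 8, 13 and 15 were above all wild-type samples and the rest of the values were interleaved. Its difference was 0.11 (95% interval -0.07 to 0.28, exact permutation p = 0.227, limma adjusted p = 0.979), at 0.07 without wild-type replicate 5 and 0.18 without the samples with adrenal transcripts. Krt20 encodes keratin 20, an intermediate filament of umbrella cells of the urothelium that also appears in injured proximal tubules. It stayed between 5.001 and 5.42 in knockout kidneys, against 5.04 to 5.32 in wild-type kidneys, with medians of 5.20 and 5.17. The values of both genotypes were mixed throughout this narrow range. The difference was 0.02 (95% interval -0.12 to 0.15, exact permutation p = 0.757, limma adjusted p = 0.997), and 34.2% of all probe sets were dimmer. Urothelial genes, 11 of 12 measured, averaged 6.29 to 6.56 in knockout and 6.39 to 6.66 in wild-type kidneys, with none past the threshold in limma. Beside 5.56% of all genes, 2 of 11 (18.2%) had an unadjusted p under 0.05. Those were Psca, a surface antigen gene, at -0.34 (limma adjusted p = 0.823), and the uroplakin gene Upk1a at -0.34 (limma adjusted p = 0.889).

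Vcam1 encodes an adhesion molecule of endothelium that tubule cells keep after failed repair. It ranged from 6.81 to 7.31, with a median of 7.17, in knockout kidneys, against 6.96 to 7.69, with a median of 7.30, in wild-type kidneys. Only 1 of the 8 knockouts was above the wild-type median, and 2 were below the wild-type range. The difference was -0.18 (95% interval -0.42 to 0.05, exact permutation p = 0.144, limma adjusted p = 0.967), and -0.12 both without wild-type replicate 6, the highest sample, and without the samples with liver transcripts. It was -0.24 without wild-type replicate 5, the lowest wild-type sample (95% interval -0.47 to -0.0088, limma adjusted p = 0.906). Endothelial genes, with 12 of 12 measured, had a median difference of 0.01, and macrophage genes, with 14 of 14 measured, one of -0.05, with 0 past the threshold in either list in limma. Beside 5.56% of all genes, 1 in each list (8.33% and 7.14%) had an unadjusted p under 0.05. These were the endothelial gene Sele at 0.25 (limma adjusted p = 0.761) and the macrophage gene Fcgr3 at -0.19 (limma adjusted p = 0.894).

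Timp1 encodes a secreted inhibitor of matrix metalloproteinases that tubules and fibroblasts release in scarring kidneys. It ranged from 4.81 to 5.502, with a median of 5.02, in knockout kidneys, against 4.71 to 4.97, with a median of 4.89, in wild-type kidneys. Knockout replicates 8, 11, 12 and 15 were above every wild-type sample and none was below the wild-type range. The difference of 0.19 (95% interval -0.0050 to 0.38) had the lowest p-value of the 9 markers and missed the threshold (exact permutation p = 0.0612, limma adjusted p = 0.914). It was 0.12 without knockout replicate 15 and 0.24 without the samples with liver transcripts (95% interval 0.02 to 0.47, limma adjusted p = 0.888). Its probe set was among the dimmer ones, with 30.3% of all probe sets below its mean. Fibroblast genes, with 14 of 14 measured, had a median difference of 0.02, and none passed in limma (0 at an unadjusted p under 0.05).

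Cdkn1a encodes p21, the cyclin-dependent kinase inhibitor through which p53 halts the cell cycle of damaged cells. Its signal was brighter than 83.9% of all probe sets. It ranged from 8.46 to 9.07, with a median of 8.69, in knockout kidneys, against 8.35 to 9.29, with a median of 8.99, in wild-type kidneys. The lowest sample and the 3 highest were wild-type kidneys, and 1 of 8 knockouts exceeded the wild-type median. The difference was -0.22 (95% interval -0.52 to 0.08, exact permutation p = 0.174, limma adjusted p = 0.973), at -0.11 without the samples with liver transcripts and -0.07 without those with adrenal transcripts. It was -0.32 without wild-type replicate 5, the lowest sample (95% interval -0.58 to -0.06, limma adjusted p = 0.833). Within the samples without Y-linked transcripts it was -0.31 (95% interval -0.55 to -0.07, limma adjusted p = 0.621). Of 15 listed targets of p53, 14 were measured, 7 with a difference above 0 and 7 below, with a median of -0.0074. None passed the threshold in limma, and 1 (7.14%, beside 5.56% of all genes) had an unadjusted p under 0.05. That one was Sesn2, a stress-induced regulator of growth signalling, at -0.25 (limma adjusted p = 0.588), while Mdm2, the ubiquitin ligase of p53, differed by 0.0041. With Y-linked transcripts as a block, 3 of 9 markers, Havcr1 (0.21), Vcam1 (-0.21) and Cdkn1a (-0.25), had an unadjusted p under 0.05 in limma, beside 8.75% of all probe sets in that fit, and 0 passed after adjustment (smallest adjusted p = 0.518). Without wild-type replicate 5 the same 3 markers had an unadjusted p under 0.05 in limma, beside 1273 of 23521 probe sets, and 0 passed after adjustment.

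**Figure D3:**
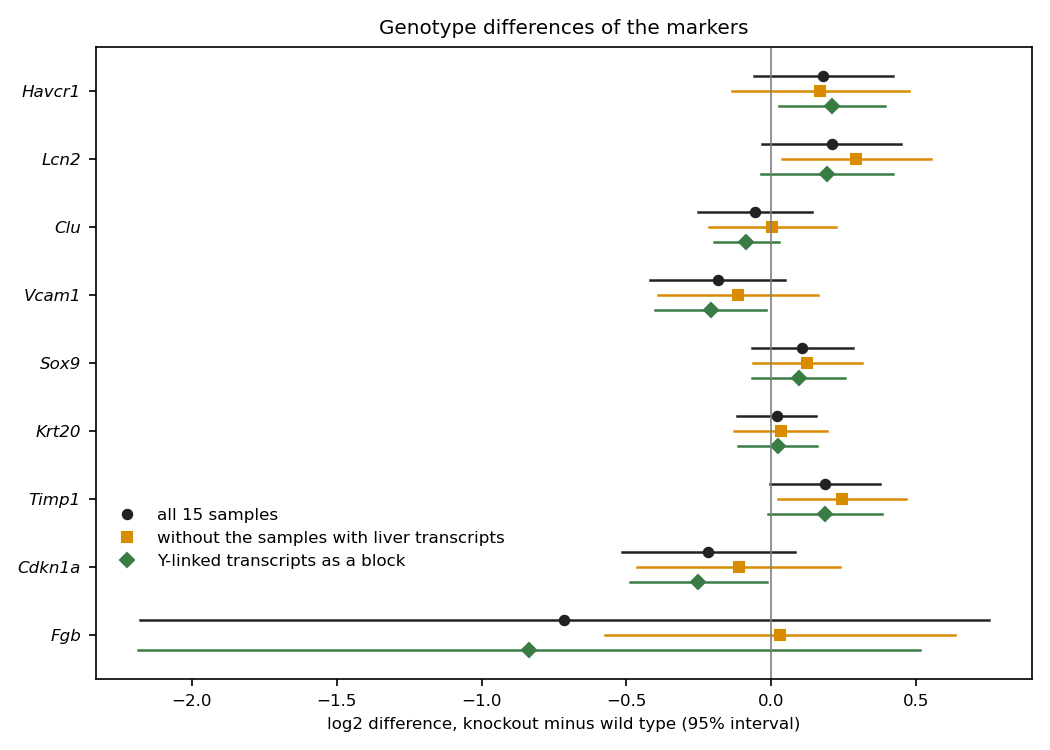
Log2 differences, knockout minus wild type, with 95% intervals from limma for the 9 markers over all 15 samples (black), over the 12 samples without liver transcripts (orange) and with Y-linked transcripts as a block (green). Fgb has the widest interval over all samples, -2.18 to 0.75, and sits at 0.03 without the samples with liver transcripts.

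Fgb encodes the beta chain of fibrinogen, which assembles with the alpha chain (Fga) and the gamma chain (Fgg) into the clotting protein of plasma. The 3 genes lie side by side on chromosome 3. Their upstream regions are shown because all of them were high in the samples with liver transcripts, among whose genes albumin (Alb, chromosome 5) is the best known. Each run is the 250 bases before the annotated start of the gene in RefSeq's GRCm38.p6 annotation, 5′ to 3′ on the gene's strand, at chr3:83049864-83050113 (minus strand) for Fgb, chr3:83025903-83026152 (plus) for Fga, chr3:83007474-83007723 (plus) for Fgg and chr5:90460620-90460869 (plus) for Alb. Capitals mark matches on either strand to CTGGGAA, the core of the interleukin 6 response element of acute phase genes, and to GTTAAT, a partial site of the hepatocyte factor HNF1.
Fgb: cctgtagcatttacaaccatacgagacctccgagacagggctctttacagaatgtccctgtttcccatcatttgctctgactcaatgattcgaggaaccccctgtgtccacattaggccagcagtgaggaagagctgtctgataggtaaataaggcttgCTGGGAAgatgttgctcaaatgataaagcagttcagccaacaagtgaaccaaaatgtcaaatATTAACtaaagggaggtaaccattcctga
Fga: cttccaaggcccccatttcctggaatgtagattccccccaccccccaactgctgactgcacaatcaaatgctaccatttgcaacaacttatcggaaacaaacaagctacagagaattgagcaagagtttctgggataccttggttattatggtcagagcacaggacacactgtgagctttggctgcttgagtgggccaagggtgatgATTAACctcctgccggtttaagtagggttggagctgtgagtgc
Fgg: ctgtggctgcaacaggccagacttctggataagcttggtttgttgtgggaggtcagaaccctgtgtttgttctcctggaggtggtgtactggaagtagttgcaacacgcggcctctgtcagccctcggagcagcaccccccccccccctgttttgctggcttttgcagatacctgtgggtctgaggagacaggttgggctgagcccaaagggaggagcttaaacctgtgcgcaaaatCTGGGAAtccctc
Alb: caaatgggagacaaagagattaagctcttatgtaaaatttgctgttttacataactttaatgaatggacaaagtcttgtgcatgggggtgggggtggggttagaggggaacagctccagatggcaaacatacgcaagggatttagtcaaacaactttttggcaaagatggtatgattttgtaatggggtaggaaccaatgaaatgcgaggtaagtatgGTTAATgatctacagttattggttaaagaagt

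The Fgb window held 1 match to each motif, on its own strand for CTGGGAA and on the opposite strand, as ATTAAC, for GTTAAT. Fga held GTTAAT alone, again as ATTAAC, Fgg held CTGGGAA alone, and Alb held GTTAAT alone. No match overlapped another. Of 32841 windows of the same length, 9.10% held CTGGGAA and 6.43% held GTTAAT, so matches to both are descriptions of these letters and not of binding.

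Fgb varied more between samples than 99.8% of all probe sets, with an SD of 1.47 over 15 samples. It read 5.59, 6.17, 8.27, 5.75, 5.60, 6.37, 6.97 and 6.86 in knockout replicates 8 to 15, against 5.67, 5.99, 8.23, 5.89, 6.34, 6.90 and 11.1 in wild-type replicates 1 to 7. The 3 highest values were those of the samples with liver transcripts. The means were 6.45 ± 0.91 (SD, n = 8) in knockout and 7.16 ± 1.95 (SD, n = 7) in wild-type kidneys, a difference of -0.71 (95% interval -2.18 to 0.75, exact permutation p = 0.423, limma adjusted p = 0.984). Without wild-type replicate 7 it was -0.06, without all 3 samples with liver transcripts 0.03 (95% interval -0.57 to 0.63), and with the liver mean as a covariate 0.07.

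Wild-type replicate 7 lay 5.03 units above the median of the 12 samples without liver transcripts in Fgb, a 32.6-fold excess. Knockout replicate 10 and wild-type replicate 3 lay 2.18 and 2.15 units above it, or 4.54-fold and 4.42-fold. The liver mean itself, which does not contain the fibrinogen chains, was 1.74, 1.75 and 3.76 units above its median in knockout replicate 10, wild-type replicate 3 and wild-type replicate 7. Fga exceeded its median by 0.48, 1.09 and 2.82 units in these samples in the same order, and Fgg by 0.95, 1.17 and 3.07 units. In knockout replicate 10 Fga, at 7.32, was only narrowly above the highest of the samples without liver transcripts, 7.25. All 3 chains were thus above the range of the other 12 samples in each of these kidneys. Alb read 12.2, 12.2 and 13.4 there against at most 9.98, but it is 1 of the liver genes whose mean picked out these samples.

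**Figure D4:**
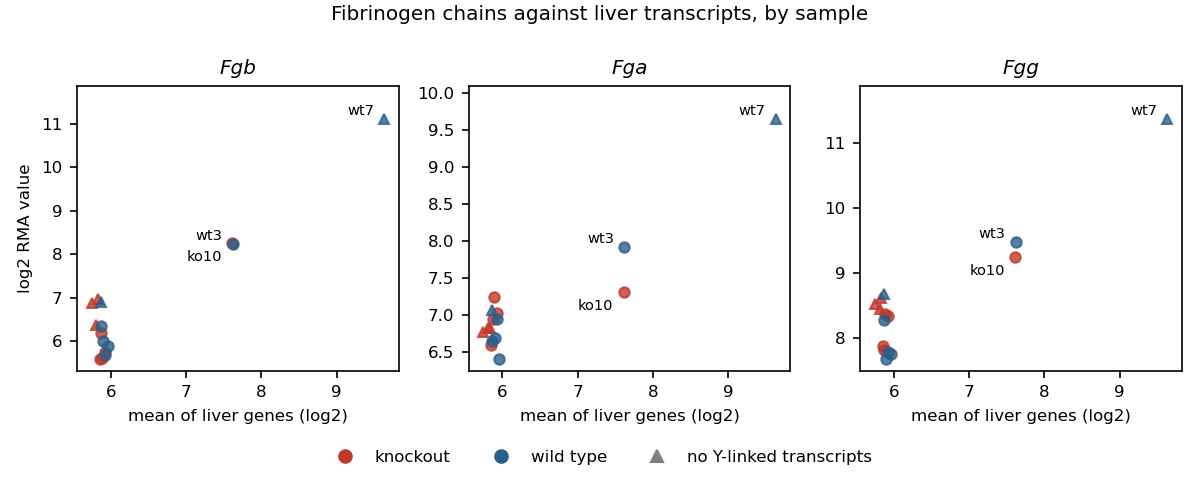
Log2 RMA values of Fgb, Fga and Fgg against the mean of 25 liver genes in each sample, with knockout kidneys in red, wild-type kidneys in blue and triangles for samples without Y-linked transcripts. Wild-type replicate 7 (wt7) is highest in all 3 panels, knockout replicate 10 (ko10) and wild-type replicate 3 (wt3) lie between it and the other 12 samples.

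No other marker went with the liver transcripts of wild-type replicate 7. Of the 9 markers, 1 had its highest value in this sample, Fgb, while 23 of 25 liver genes did. That second count follows in part from the choice of sample, because the mean of these genes singled it out. Relative to the median of the 12 samples without liver transcripts, the other 8 markers lay in wild-type replicate 7 between -0.15 (Havcr1) and 0.36 (Cdkn1a), inside the range of those samples. In wild-type replicate 3 they lay between -0.26 (Sox9) and 0.25 (Vcam1), also inside it. In knockout replicate 10 they lay between -0.42 (Cdkn1a) and 0.05 (Havcr1), with Clu, at 8.62, below the range and the rest inside it. Acute phase genes of plasma followed the liver genes, with a list mean of 6.08 in knockout replicate 10, 6.40 in wild-type replicate 3 and 7.35 in wild-type replicate 7, against 5.35 to 5.82 elsewhere, and one of them, haptoglobin (Hp), differed by -0.56 between genotypes (limma adjusted p = 0.960).

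Among the 12 samples without liver transcripts Fgb still varied. The 4 of them without Y-linked transcripts read 6.37, 6.97 and 6.86 in knockout replicates 13 to 15 and 6.90 in wild-type replicate 6, against 5.59 to 6.34 in the 8 samples with them. These samples did not overlap, a separation that 15.8% of all probe sets shared over the same 12 samples. Fgg read 8.43 to 8.67 against 7.67 to 8.36 and Alb 9.38 to 9.98 against 8.42 to 9.05, both without overlap, while Fga overlapped at 6.78 to 7.07 against 6.41 to 7.25. Both genotypes took part in this separation.

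Pairs of markers differed in how they ran across the 12 samples without liver transcripts. Havcr1 ran against Cdkn1a (Spearman rho = -0.839) and against Clu (-0.776), and Clu ran with Fgb (0.790) and with Cdkn1a (0.699), over samples that share their normalisation and differ in Y-linked transcripts. Havcr1 was on average 0.35 lower, and Cdkn1a 0.32, Clu 0.32 and Vcam1 0.28 higher, in the 4 of these samples without Y-linked transcripts than in the 8 with them. The genes most like Cdkn1a over the 12 samples were Usp53 (rho = 0.986), Zbtb39 (0.902) and Zbtb6 (0.895). Those most like Clu were Rab2b, Cdh11 and Trim68 (0.965 to 0.951), and those most like Havcr1 were Top1mt, Pgpep1 and Hps3 (0.923 to 0.916). With the best of 22180 genes picked from 12 samples, rho of this size is a description of likeness only. Over all 15 samples the ranks of Fgb ran closest to Fabp1, the liver fatty acid-binding protein gene (0.954), and Lcat, which encodes a plasma enzyme of cholesterol esterification made in liver (0.947).

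Knockout replicate 15 held the highest value of 4 of the 9 markers, Lcn2 (7.41), Clu (9.31), Sox9 (6.60) and Timp1 (5.502), and the lowest of none. It also had the highest list means of all 15 samples for lymphocyte genes (7.39), macrophage genes (7.31) and fibroblast genes (8.32), whose part in these marker values was not tested. The fibroblast mean was nearly as high, 8.25 to 8.29, in the other samples without Y-linked transcripts, against 7.81 to 8.07 in those with them. Wild-type replicate 6 held the highest of 2, Vcam1 (7.69) and Cdkn1a (9.29), and the lowest of Havcr1. In the wider list of injury genes, knockout replicate 15 was the highest sample for 7 of 37, among them Vim, Lgals3, Anxa1 and Tgfb1. Wild-type replicate 6 was highest for 7 and wild-type replicate 7 for 8. Those 8 were Krt7, Krt18, Sox4, Mdk, Cp, Myc, Plin2 and Egr1, with Cp at 10.2 against a median of 8.9 over all samples. Whether they went with the liver transcripts of that kidney was not tested. Over all probe sets these 3 samples were the highest for 8.06%, 7.69% and 6.62%. The other 2 knockouts without Y-linked transcripts were the highest for 4 and 2 of the 37 genes.

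The wider list of genes reported in injured or repairing tubules, cytokeratins, annexins, cytokines, matrix and stress genes, had 37 of 40 members measured. None passed the threshold in limma, and 3 had an unadjusted p under 0.05 (8.11%, beside 5.56% of all genes with 1 probe set each). The list held 20 differences above 0 and 17 below, with a median of 0.01. Mdk, which encodes the heparin-binding growth factor midkine, had the smallest p and averaged 7.05 ± 0.20 in knockout (SD, n = 8) and 7.39 ± 0.14 in wild-type kidneys (SD, n = 7), a difference of -0.35 (95% interval -0.53 to -0.16, limma adjusted p = 0.381). Ccn2, the connective tissue growth factor gene, followed at -0.30 (95% interval -0.50 to -0.09, limma adjusted p = 0.672). The third was Krt19, a cytokeratin of collecting duct and dedifferentiated tubule cells, at 0.21 (95% interval 0.05 to 0.37, limma adjusted p = 0.749), singled out after its value was seen.

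**Figure D5:**
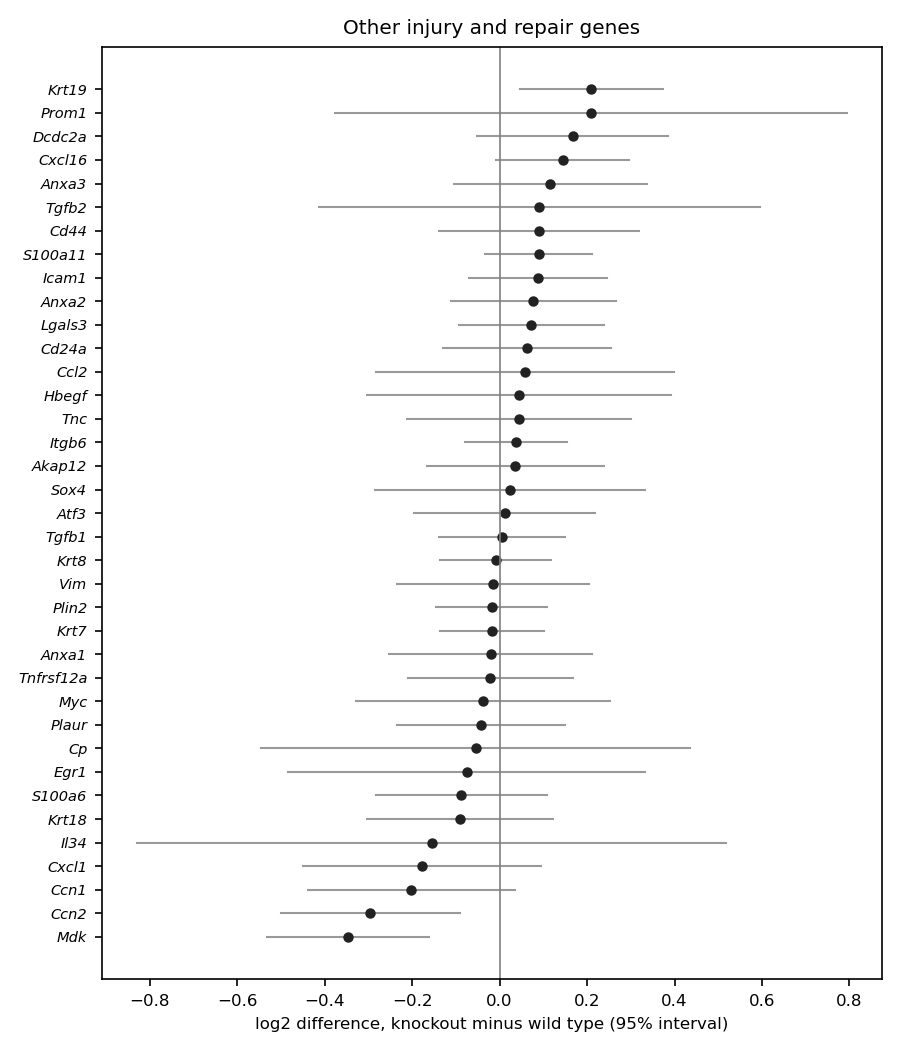
Log2 differences, knockout minus wild type, with 95% limma intervals for 37 further injury and repair genes, sorted by size. Points run from -0.35 (Mdk) to 0.21 (Krt19), 17 below and 20 above 0, and the intervals of 3 genes, Mdk, Ccn2 and Krt19, leave out 0.

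Genes that fall when tubules are damaged gave the same count of calls. Of 18 proximal tubule genes, all measured, 10 differences lay above 0 and 8 below, with a median of 0.0063. None passed the threshold in limma, and 1 (5.56%, beside 5.56% of all genes) had an unadjusted p under 0.05. Their list mean was 12.01 to 12.07 in the samples without Y-linked transcripts and 12.35 to 12.43 in those with them. Single genes did not all follow this mean. Knockout replicates 13 and 14, both without Y-linked transcripts, were the highest sample for 4 of the 18 genes each, and the lowest for 0 and 3. Slc7a13 had the largest difference, -0.51 (95% interval -3.72 to 2.71), with an SD of 3.28 in knockout and 3.21 in wild-type kidneys. The next most variable gene of the list, Slc22a6, had SDs of 0.41 and 0.51. Slc7a13 thus weighs most in the spread of the list mean between samples, and the mean without it was not computed. The endocytic receptor genes Lrp2 and Cubn differed by 0.03 and 0.0030, and the factor Hnf4a, the one with an unadjusted p under 0.05, by -0.10 (limma adjusted p = 0.889). Of 6 distal genes, 4 differences lay above 0 and 2 below, with none past the threshold in limma (0 at an unadjusted p under 0.05). Their list mean went the other way, at 12.47 to 12.58 without Y-linked transcripts and 12.35 to 12.41 with them. Umod differed by -0.0012 (95% interval -0.10 to 0.10), Egf, which encodes epidermal growth factor, by 0.09, and Kl, which encodes the phosphate-regulating co-receptor klotho, by 0.04.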

How the data were processed

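Kidney RNA, 500 ng per sample per the labels' protocols, was measured on 15 one-colour arrays. The deposited log2 values were made by the authors with RMA, per the submitters' processing notes, which brings arrays to 1 distribution, so a change of most transcripts would be removed and dim probe sets are compressed. The values carry no detection call, and precision rests on the count of arrays. Some values recur to the last digit across arrays, so ranks hold ties. Vcam1 read 7.172 in knockout replicates 8, 11 and 14 and wild-type replicate 2. Sox9 read 6.320 in knockout replicate 14 and wild-type replicates 1 and 6, and Krt20 5.166 in knockout replicate 11 and wild-type replicates 3 and 4.

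Of 41345 probe sets, 23521 had exactly 1 gene symbol and were tested, 1814 had several, and 16010 were unnamed here. Symbols were matched by Entrez ID to RefSeq genes of GRCm38.p6 for 23328 of them. The build behind the array is not stated, and printed coordinates are RefSeq's. Groups came from the sample titles. Each array was taken as 1 mouse, as the series' design counts them.

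All 15 arrays entered 1 limma model of genotype (version 3.58.1, R 4.3.3; lmFit, eBayes, no covariate), with Benjamini-Hochberg adjustment over all probe sets. The brightest probe set stood for a gene. Exact permutation tests of the difference of means were two-sided over 6435 splits, with a smallest p of 0.000311. The limma script was tested on simulated data. Alternatives were other variance moderation, an exact rank-sum test, a filter on dim probe sets, median centring, all probe sets of a gene, Y-linked transcripts as a block or within each set, liver transcripts as a covariate or left out, adrenal samples left out, and each sample left out.

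The text names the 9 measured markers, Grhl1, Fga and Fgg, the genes past the threshold over all probe sets, and up to 3 genes most like a marker by Spearman rho. Of the 2 genes with the smallest p in each list it names only some. Every list gene with an unadjusted p under 0.05 is among the genes named. S100a8, S100a9, Slc34a1, Slc7a13, Slc22a6, Umod, Alb, Mdm2, Lrp2, Cubn, Kl, Krt19, Xist and the genes highest in 1 sample were named after their values were seen. The markers, the 20 gene lists (237 genes, 224 measured) and the alternatives were chosen with earlier results of these data known.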

Additional observations from a re-analysis of the deposited data

Results flagged for a closer look

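Havcr1 in wild-type replicate 6 stood apart from its group, at 5.003 against 5.54 for the next lowest wild-type kidney, a gap of 0.582 of the group's range. It was the 1 such value in 18 groups checked (9 markers in 2 genotypes), where chance gives about 1 in 20. This kidney had no Y-linked transcripts, and its part in the genotype difference of Havcr1 is the move to 0.08 without it. Leaving it out also changes the balance of sexes, because it is 1 of 2 wild-type kidneys without Y-linked transcripts.

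The genotype difference of Clu was 0.28 higher in kidneys without Y-linked transcripts than in kidneys with them, because the knockouts lay below the wild types without overlap in the set with Y-linked transcripts and above them without overlap in the other set. Within the other set 24.7% of all probe sets did not overlap, and Cdkn1a was among them with the knockouts lower at a difference of -0.31. The limma interaction test gave an adjusted p of 0.584 over all probe sets. The set without Y-linked transcripts held 3 knockout and 2 wild-type kidneys.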

How the results depend on the processing

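The 9 markers were refitted under up to 27 alternatives each, 240 values in all, of which 0 passed the threshold and 231 kept their direction. The 9 that turned belong to 3 markers. Clu turned to 0.10 within samples without Y-linked transcripts, 0.0042 without the samples with liver transcripts and 0.0057 without those with adrenal transcripts. Krt20 turned to -0.10 within samples without Y-linked transcripts and -0.0002 with the liver mean as a covariate, and with 1 sample left out it was lowest at -0.0124 (knockout replicate 8 removed), -0.0055 with wild-type replicate 5 removed, and highest at 0.0477 (knockout replicate 13 removed). Fgb turned to 0.0672 with the liver mean as a covariate and to 0.0295 without the samples with liver transcripts. Krt20, Havcr1 and Timp1 were not among the probe sets kept by the filter on dim ones, and each marker had 1 probe set, so averaging probe sets changed nothing for them.

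Over all probe sets 3 passed (Greb1 higher, Rec8 and Cys1 lower). The count was 15 with Y-linked transcripts as a block, none of them a marker, 1 within samples without Y-linked transcripts, 0 above the median brightness (771 at an unadjusted p under 0.05), 0 in the exact rank-sum test (1152 at an unadjusted p under 0.05), and 2 to 6 with 1 sample left out, the 6 without knockout replicate 8. The cause of these shifts was not tested. The difference between the Clu differences was lowest, 0.23, when knockout replicate 15 was left out and highest, 0.31, when knockout replicate 14 was. No paired analysis was possible because the replicate numbers of the genotypes, 8 to 15 and 1 to 7, share no number.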

Other observations

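Genes of other cell types and tissues also varied between these kidneys. For comparison, 54.7% of all 22180 genes had a difference above 0 and 5.56% an unadjusted p under 0.05 in limma. Of 11 measured lymphocyte genes, 2 differences lay above 0 and 9 below, with none past the threshold in limma (2 at an unadjusted p under 0.05). Ighm, the immunoglobulin mu heavy chain gene, averaged 10.4 in knockout and 11.6 in wild-type kidneys (difference -1.19, limma adjusted p = 0.851), and Jchain, the joining chain of secreted antibodies, 8.10 and 9.09 (difference -0.996, limma adjusted p = 0.738). Of 9 measured fat genes, 8 differences lay above 0 and 1 below, with none past the threshold in limma (2 at an unadjusted p under 0.05). Ucp1, the uncoupling protein gene of brown fat, averaged 9.90 in knockout and 8.61 in wild-type kidneys (difference 1.28, limma adjusted p = 0.274). Lep, the leptin gene, averaged 5.65 in knockout and 6.33 in wild-type kidneys, the 1 difference below 0 (-0.68, limma adjusted p = 0.610). Of 13 measured adrenal genes, 12 differences lay above 0 and 1 below, with none past the threshold in limma (0 at an unadjusted p under 0.05). Adrenal transcripts were high in 4 knockout and 2 wild-type samples, so these 13 differences are not separate observations. The part of these lists in the values of the injury markers was not tested beyond leaving out the samples with liver or adrenal transcripts.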
